A study of Mus musculus with 12 samples.

Results

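The comparison of bleomycin-treated lung with control lung rests on 8 of the 12 libraries of the series, 4 labelled Model and 4 labelled Control. They were chosen by these labels alone, and the comparison was read across all genes detected. Polyadenylated RNA of whole lung tissue was sequenced from male C57BL/6 mice aged 6 to 8 weeks and killed on day 28. Model mice received bleomycin once, at 5 mg/kg into the trachea, and then water by mouth, and Control mice received distilled water. The other 4 libraries, labelled HBG, came from mice that also received Huashibaidu granules (a herbal medicine from China) at 7 g/kg beside the bleomycin. The labels disagree on when the granules were given: either from a week before bleomycin until day 28, or from day 7 for 14 days. HBG libraries entered the estimate of the spread, and their values are printed beside those of the other groups. Whether each library stands for its own animal is not stated in the labels, so p-values measure only the spread among libraries, which may be technical.

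Bleomycin breaks DNA, and the lung has little of the hydrolase that inactivates it. A dose into the airways injures alveolar epithelium and capillary endothelium. Neutrophils and monocytes then enter, macrophages derived from monocytes accumulate, and fibroblasts deposit collagen in the alveolar walls. TGF-beta, stored in the matrix in latent form, is the best known driver of this deposition, and metalloproteinases and their inhibitors govern its turnover. In young mice the scar partly resolves in the weeks that follow.

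Expression is given as CPM, counts relative to a library's total in units of 1e6 counts after scaling by TMM, a method that sets most genes level between libraries. A gene was said to have risen or fallen if edgeR's quasi-likelihood test over all 17827 genes tested gave an adjusted p under 0.05. A gene was said to separate the groups if all 4 Model libraries lay above, or all below, all 4 Control libraries. In the comparison of Model with Control, 62 genes passed the test (0.348% of those tested), 9 higher (0.0505%) and 53 lower (0.297%), and all 62 separated the groups. Far more genes separated the groups without passing: 1552 genes did so in all (8.71%), 748 higher (4.2%) and 804 lower (4.51%). The median fold change of all genes tested was 1.006, and 51.5% had a higher mean in Model.

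The promoters of 4 genes that passed the test are shown here because the genes described below differ in base composition. Each is the 250 bases before the start of the RefSeq transcript on GRCm38.p6, printed 5′ to 3′ on the strand of the gene, with matches to 4 motifs in capitals on either strand. The motifs were AP-1 (TGANTCA), C/EBP (TTGCNNAA), the GC box (GGGCGG) and the CCAAT box (CCAAT).
Timp3, which rose, chr10:86300162-86300411, plus strand: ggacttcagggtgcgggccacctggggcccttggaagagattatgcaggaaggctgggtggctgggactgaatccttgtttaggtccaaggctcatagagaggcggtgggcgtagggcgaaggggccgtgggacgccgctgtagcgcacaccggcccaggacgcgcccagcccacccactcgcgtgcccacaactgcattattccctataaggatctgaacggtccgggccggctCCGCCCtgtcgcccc
Selp, which rose, chr1:164115014-164115263, plus strand: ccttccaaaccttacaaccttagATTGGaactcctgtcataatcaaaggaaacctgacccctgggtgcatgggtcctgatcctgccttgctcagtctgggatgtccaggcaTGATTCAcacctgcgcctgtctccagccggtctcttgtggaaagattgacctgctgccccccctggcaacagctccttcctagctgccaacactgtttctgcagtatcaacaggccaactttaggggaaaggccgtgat
Cebpb, which fell, chr2:167688665-167688914, plus strand: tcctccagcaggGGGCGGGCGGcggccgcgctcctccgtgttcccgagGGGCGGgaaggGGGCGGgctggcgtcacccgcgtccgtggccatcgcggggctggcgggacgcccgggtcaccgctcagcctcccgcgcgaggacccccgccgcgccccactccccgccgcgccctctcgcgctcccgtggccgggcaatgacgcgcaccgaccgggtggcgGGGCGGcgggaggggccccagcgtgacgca
Scand1, which fell, chr2:156312705-156312954, minus strand: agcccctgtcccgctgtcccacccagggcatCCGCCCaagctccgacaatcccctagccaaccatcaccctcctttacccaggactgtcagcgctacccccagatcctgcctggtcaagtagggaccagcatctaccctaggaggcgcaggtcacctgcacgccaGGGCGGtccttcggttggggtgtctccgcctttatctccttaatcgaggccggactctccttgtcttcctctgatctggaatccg

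The Cebpb window was 81.6% GC and held 5 GC boxes, of which a pair overlaps, and the Scand1 window was 61.6% GC with 2. The Selp window was 53.6% GC and held a match to AP-1 and a match to the CCAAT box, with no GC box. Timp3 had 65.6% GC and 1 GC box. RefSeq windows were found for 40 of the 53 genes that fell, 42 windows in all, and 69% of these held a GC box. The share was 53% of the 15997 windows of tested genes and 32.7% of all 32851 windows used. Windows of 1 chromosome were left out of all these counts. Matches to AP-1 were in 2.38% of the windows of fallen genes, 5.03% of those of tested genes and 6.75% of all. For C/EBP the shares were 11.9%, 8.36% and 9.56%, and for the CCAAT box 28.6%, 34.4% and 33.8%. A match is a description of the letters and not a binding site.

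All 12 libraries had the marker genes of lung at high levels. Scgb1a1, the secretoglobin of club cells, was the most abundant gene in 10 of them, and the surfactant protein gene Sftpc ranged from 7736 to 18928 CPM. The Y-linked genes Kdm5d, Ddx3y, Uty and Eif2s3y were present in every library and Xist was at most 3.26 CPM. The Control totals lay between 18864759 and 27150787 counts, those of Model between 19230806 and 22622406 and those of HBG between 17979863 and 20752001. A library with 0 counts of a gene may still hold up to 3, which is 0.11 to 0.167 CPM. Model 4 stood apart from the other Model libraries in scores of several gene lists, each score being log2 CPM averaged over the list and set against the mean library. Its score for monocyte-derived macrophages was -0.55, inside the Control range of -0.62 to -0.42, against 0.25, 0.77 and 1.27 in the other 3 Model libraries. Without Model 4, 67 genes passed, 33 higher and 34 lower, and values without it stand beside some of the genes and lists named below. Model 4 was singled out after its scores were seen, so such values are no independent evidence of a change. Median fold changes of other lists moved too, such as cardiac muscle from 0.436 to 0.224 and ciliated genes from 0.882 to 0.784. Neutrophil, B cell and T cell medians went from 1.554 to 1.904, 1.575 to 1.826 and 1.523 to 1.783. In these lists Model 2 was the only Model library to score above every Control library, and it weighs more without Model 4. Those of venous endothelium (1.234 to 1.182) and immediate early genes (0.629 to 0.663) moved towards no change.

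**Figure D1:**
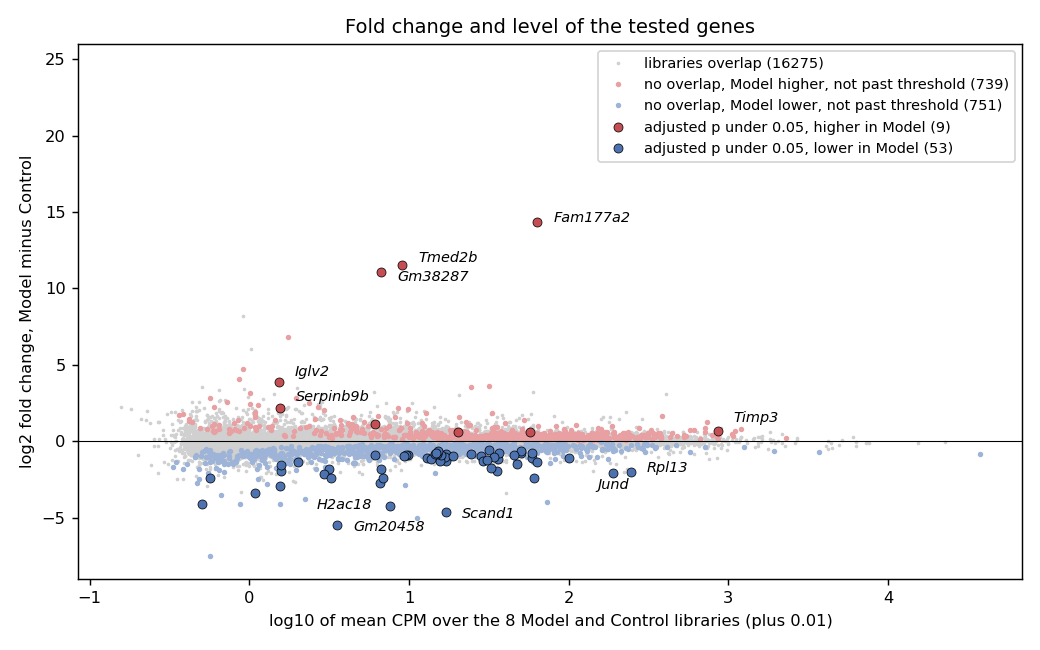
Log2 fold change of Model minus Control (vertical axis) against log10 of the mean CPM of the 8 libraries plus 0.01 (horizontal axis), 1 point per gene tested. Small coloured points are genes that separated the groups without passing the test, and large points are the 9 that rose and the 53 that fell. The genes that fell were spread over most of the range of levels, and 3 of the 9 that rose had 0 counts in Control, so their plotted fold changes depend on the prior count.

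Among the genes that rose were an inhibitor of matrix proteases, an adhesion receptor of vessels, a lysosomal enzyme and an inhibitor of intracellular proteases. Timp3 (ENSMUSG00000020044), a metalloproteinase inhibitor bound to the matrix, had 704, 621, 675 and 669 CPM in Control 1 to Control 4 and 1021, 1137, 1016 and 997 CPM in Model 1 to Model 4. The Model libraries lay close together, the lowest well above the highest Control library, and the HBG libraries had 775 to 1009 CPM. The log2 fold change was 0.64 ± 0.11 (SE, edgeR adjusted p = 0.0341). Its promoter, printed above, held no match to AP-1 or C/EBP.

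Selp (ENSMUSG00000026580) encodes P-selectin, which endothelium and platelets display after injury to slow passing leukocytes. Its Control libraries had 3.88, 4.20, 3.50 and 3.65 CPM and its Model libraries 10.1, 8.94, 6.79 and 7.87. Every Model library was above every Control library, and the HBG libraries had 4.76 to 7.37 CPM. The log2 fold change was 1.14 ± 0.18 (SE, edgeR adjusted p = 0.0195). Man2b2 (ENSMUSG00000029119), a lysosomal mannosidase, had 47.6, 44.1, 44.9 and 41.4 CPM in Control and 72.8, 78.4, 63.7 and 62 in Model (edgeR adjusted p = 0.0416). Tmem104, a membrane protein gene, had 13.7 to 17.9 CPM in Control and 22.8 to 25.2 in Model (edgeR adjusted p = 0.0349).

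Serpinb9b (ENSMUSG00000021403) is a mouse serpin of the family whose member Serpinb9 inhibits granzyme B. It had 0.862, 0.350, 0.544 and 0.494 CPM in Control and 2.35, 3.38, 3.21 and 1.17 in Model, with Model 4 the lowest of its group (edgeR adjusted p = 0.042). Serpinb9 itself had 125, 106, 107 and 117 CPM in Control and 236, 168, 201 and 116 in Model, where Model 4 lay among the Control libraries (edgeR adjusted p = 0.201, and 0.0473 without Model 4). The calls of Timp3, Man2b2, Serpinb9b and Tmem104 were lost without each of the 8 libraries except Model 4, and that of Selp without each except Model 3 and Model 4 (edgeR adjusted p up to 0.153). Correcting for GC content and transcript length also ended those of Man2b2 and Tmem104 (edgeR adjusted p = 0.0728 and 0.0734).

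The remaining 4 genes that rose share sequence with other genes or are immunoglobulin or predicted genes, and all 4 kept their call without any single library. Fam177a2 had 0 counts in every Control library and 125, 117, 129 and 136 CPM in Model, and its HBG libraries had 97.6 to 128 CPM. Against a floor of 3 counts in each library, the Model mean was at least 785-fold higher. The near-identical gene Fam177a had the opposite pattern, with 127, 141, 144 and 136 CPM in Control and 6.35, 2.37, 18.1 and 8.27 in Model (edgeR adjusted p = 0.0593). All stretches of 50 bases of the longest Fam177a2 transcript occur in other genes, Fam177a among them. The sum of the 2 genes was 137 ± 7.26 CPM in Control and 135 ± 12.9 in Model (SD, n = 4 per group). Which of the 2 a read was counted for, and so the rise of Fam177a2, is uncertain.

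Tmed2b likewise had 0 counts in every Control library and 16.2, 19.2, 13.7 and 23.4 CPM in Model, where the mean was at least 112-fold higher than that floor. Its longest transcript is fully contained in 50-base stretches of Tmed2, a cargo receptor of the early secretory pathway, and the sum of the pair was 351 ± 15.8 CPM in Control and 322 ± 53.4 in Model. The predicted gene Gm38287, also at 0 in all Control libraries, had 15.6, 6.66, 16.9 and 14.1 CPM in Model (mean at least 82.5-fold higher). HBG libraries had 10.9 to 16.3 CPM of Tmed2b and 10.1 to 18.2 of Gm38287. Gm38287 shares none of its 50-base stretches with other genes. Fam177a2, Tmed2b and Gm38287 were thus at 0 in all 4 Control libraries and present in all 8 libraries of bleomycin-treated mice. The labels give no batch and no substrain of C57BL/6, so a difference in substrain, extraction or library preparation between Control and the other groups cannot be told apart from treatment. Iglv2, a variable segment of the lambda light chain, had 0.1 to 0.272 CPM in Control and 4.11, 3.84, 1.49 and 2.03 in Model (edgeR adjusted p = 0.00433), and it shares 24% of its 50-base stretches with Iglv1.

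**Figure D2:**
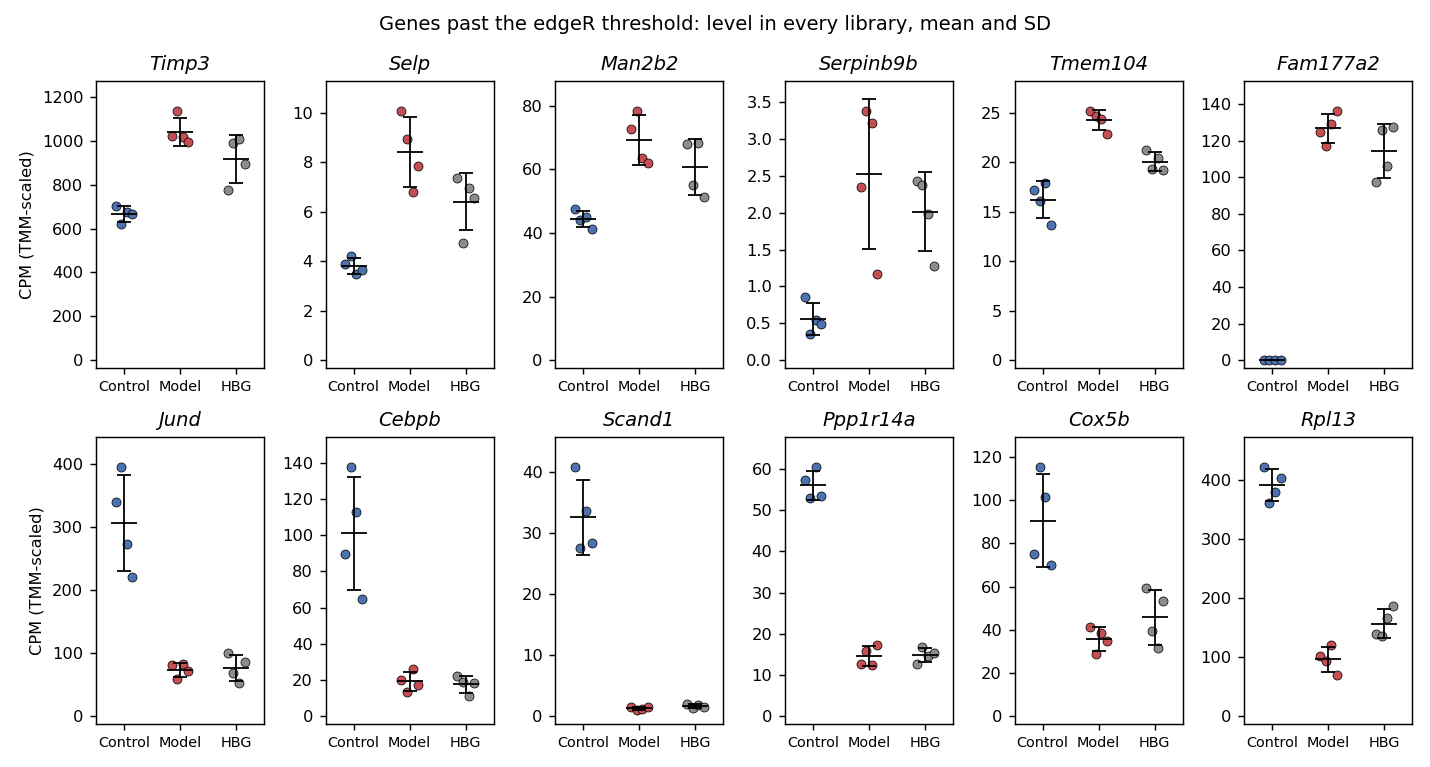
Level in CPM (vertical axes, from 0) of 12 genes that passed the test, 1 point per library, with the mean and SD of the 4 libraries of each group. The top row holds genes that rose and the bottom row genes that fell, and no Model library overlaps a Control library in any panel. Fam177a2 lay at 0 in the 4 Control libraries and at 117 to 136 CPM in Model.

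The 53 genes that fell included 8 with predicted or unnamed symbols. The other 45 were grouped by what their products do, after their values were seen: 11 of transcription and chromatin, 9 of RNA and ribosomes, 11 of mitochondria, 6 ligands, channels and signalling proteins, 7 of membranes and trafficking, and 1 antisense RNA. Their log2 fold changes ranged from -4.61 to -0.60.

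Genes of transcription and chromatin fell furthest, with a median log2 fold change of -1.95. Scand1 (ENSMUSG00000046229), a SCAN-domain protein that binds zinc finger factors, had 40.8, 27.5, 33.7 and 28.4 CPM in Control and 1.55, 1.11, 1.13 and 1.52 in Model. The groups were far apart, HBG had 1.41 to 2.05 CPM, and the log2 fold change was -4.61 ± 0.20 (SE, edgeR adjusted p = 3.44e-07). Zfp771 (ENSMUSG00000054716), a zinc finger gene, had 13, 10.6, 11.9 and 10.4 CPM in Control and 2.08, 1.31, 1.90 and 1.47 in Model, and 1.41 to 2.72 in HBG (edgeR adjusted p = 0.000133).

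Jund and Cebpb encode basic leucine zipper factors, the former an AP-1 subunit and the latter a regulator of inflammatory and macrophage genes. Jund (ENSMUSG00000071076) had 339, 395, 273 and 221 CPM in Control and 81.1, 58.8, 83.3 and 72.3 in Model, and 53 to 100 in HBG. The lowest Control library was above all Model libraries, and the log2 fold change was -2.05 ± 0.22 (SE, edgeR adjusted p = 0.00157). Cebpb (ENSMUSG00000056501) had 89.6, 137, 113 and 64.7 CPM in Control and 20.2, 13.7, 26 and 17.2 in Model, and 11 to 22 in HBG (log2 fold change -2.39 ± 0.28, SE, edgeR adjusted p = 0.00264). The calls of Scand1, Zfp771, Jund and Cebpb, with those of Ccdc85b and Sap30l, held without any single library.

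The other members of the group were subunits of large complexes, histones and further factors. Taf10, of TFIID and SAGA, had 55.5 to 66.1 CPM in Control and 32.8 to 42.7 in Model, a call that did not hold when Control 1 or Control 3 was dropped (highest edgeR adjusted p 0.0597). Sap30l, of the Sin3 deacetylase complex, had 20.3 to 23.7 CPM in Control and 11.5 to 13.4 in Model. Its call did not survive the GC and length correction, which left a log2 fold change of -0.06 in place of -0.83. Nr2f6, an orphan nuclear receptor, had 37.7 to 49 CPM in Control and 11.6 to 23.4 in Model, and its call was lost without each of the 8 libraries (edgeR adjusted p up to 0.149). Mesp1, a basic helix-loop-helix factor, had 1.83 to 2.80 CPM in Control and 0.480 to 0.812 in Model, and it was called only without Control 4 or Model 4. H2ax, the histone variant phosphorylated at DNA breaks, had 10.5 to 14.6 CPM in Control and 5.68 to 7.62 in Model, and its call held only without Control 2. The GC and length correction also ended the calls of Nr2f6, H2ax and Mesp1 (edgeR adjusted p = 0.282, 0.387 and 0.0696), and 7 of the 11 genes of the group remained.

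The replication-dependent histone gene H2ac18 had 18.1, 12.9, 16.7 and 9.67 CPM in Control and 1.49, 0.606, 0 and 0.914 in Model. HBG lay between them at 3.51 to 7.79 CPM. H2ac18 shares 89.4% of its 50-base stretches with other genes, but unlike the pairs above the sum with its neighbour H2ac19 also differed, at 27.5 ± 4.30 CPM in Control and 7.09 ± 0.354 in Model. Dropping Control 1, Control 3 or Model 2 ended its call (highest edgeR adjusted p 0.0825). Over the 14 tested members of the histone list, 10 had a lower mean in Model, 2 separated the groups and the median fold change was 0.834. The libraries were made from polyadenylated RNA, and how fully this selection samples histone messages was not tested. The values are therefore levels in these libraries and may not be histone expression in the lung.

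Of the genes of RNA and ribosomes, Rpl13 and Hnrnpa0 had the smallest adjusted p. Rpl13 (ENSMUSG00000000740), a protein of the large ribosomal subunit, had 422, 361, 379 and 403 CPM in Control and 102, 94.1, 121 and 69.8 in Model. HBG lay between, at 136 to 186 CPM, and the log2 fold change was -2.01 ± 0.16 (SE, edgeR adjusted p = 0.000133). Reads of Rpl13 can be divided with its copies, since 28.8% of its 50-base stretches occur in other genes. Rpl13 was the 1 member of the 73 cytosolic ribosomal protein genes to pass, and 57 of the 73 had a lower mean, with a median fold change of 0.908.

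Hnrnpa0 (ENSMUSG00000007836), which binds AU-rich messages, had 141, 126, 135 and 143 CPM in Control and 75.1, 61, 68.7 and 55.6 in Model, and 66.7 to 74.7 in HBG (edgeR adjusted p = 0.000321). The nucleolar gene Nol7 had 59.6 to 68.1 CPM in Control and 35.3 to 39 in Model (edgeR adjusted p = 0.00113). The spliceosomal Sm protein gene Snrpf had 19.3 to 24.7 and 9.49 to 13.5 CPM, and Rnaseh2c, a subunit of the ribonuclease that removes RNA from DNA hybrids, 22.5 to 25.1 and 8.17 to 12.5 CPM. Pop5, of RNase P, had 17.4 to 20 and 7.52 to 12.1 CPM, called only without Model 2 when a library was left out. Trir had 75.1 to 85.8 CPM in Control and 26.3 to 45.6 in Model, a call lost without Control 3 (edgeR adjusted p = 0.0533). Zfp622 had 36.2 to 42.4 and 23.2 to 27.3 CPM, and Rnaset2a, a secreted ribonuclease, 65 to 81.4 and 18.7 to 31.9 CPM. Both of the latter calls were lost without each of the 8 libraries (edgeR adjusted p up to 0.126). Rnaset2a shares 81.6% of its 50-base stretches, mostly with Rnaset2b, and their sum was 210 ± 19 CPM in Control and 156 ± 16.9 in Model. All 9 of the group kept their calls with the GC and length correction.

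The 11 mitochondrial genes spanned the respiratory chain, the mitochondrial ribosome, carriers and a nuclease, and their log2 fold changes ranged from -1.84 to -0.86. Cox5b (ENSMUSG00000061518), of cytochrome c oxidase, had 75.2, 115, 102 and 70.2 CPM in Control and 41.5, 28.7, 38.8 and 35 in Model, with HBG at 31.5 to 59.4. No library overlapped between Model and Control (edgeR adjusted p = 0.0294). The complex I subunit gene Ndufb2 had 19.2 to 21.9 CPM in Control and 9.49 to 12.2 in Model, and Ndufab1, the mitochondrial acyl carrier protein, 52.6 to 68.2 and 22.8 to 36.2 CPM. In the mitochondrial ribosome, Mrps34 had 23.2 to 27.2 and 11.4 to 15.1 CPM and Mrps24 had 19.3 to 24.9 and 7.00 to 11 CPM, and these 2 calls held without any single library. Mrps34 shares 38.4% of its 50-base stretches with the adjoining gene Nme3.

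Endog (ENSMUSG00000015337), a mitochondrial endonuclease, had 10.6, 11, 10.4 and 9.62 CPM in Control and 2.99, 2.52, 3.03 and 3.05 in Model. The 2 groups were each tight, while HBG was spread from 1.51 to 6.16 CPM. Mpc2, of the pyruvate carrier, had 41.8 to 54.8 CPM in Control and 18.4 to 26.3 in Model, and the ferredoxin gene Fdx1 had 36.9 to 46.8 and 12.1 to 21.1 CPM. Chchd7 had 10.2 to 13.9 and 6.19 to 6.97 CPM, Malsu1, an assembly factor of the mitochondrial ribosome, 7.03 to 9.16 and 3.48 to 4.91, and Gadd45gip1, a protein of its large subunit, 17.9 to 21.8 and 9.64 to 12 CPM. The calls of Endog, Malsu1, Ndufab1 and Chchd7 were lost without each of the 8 libraries (edgeR adjusted p up to 0.153). The call of Ndufb2 was lost without Control 3, that of Mpc2 without Control 3 or Model 2, and those of Cox5b, Fdx1 and Gadd45gip1 without 4 to 6 libraries in turn. With the GC and length correction, 7 of the 11 remained.

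Nuclear genes of oxidative phosphorylation as a list were lower in mean in all 53 tested members, the median fold change being 0.815, and 8 of them separated the groups. Short genes were lower in general. The 1676 genes of up to 1000 bases had a median log2 fold change of -0.135, and 8.53% separated downwards against 1.43% upwards. Cox5b was the 1 member of this list to pass, and the list does not hold Ndufb2 and Ndufab1, which also passed. Atp5d, of ATP synthase, had 90.9 to 118 CPM in Control and 59.6 to 67.8 in Model (edgeR adjusted p = 0.0645). Heart muscle is rich in these transcripts, and the markers of cardiac muscle, which also lines mouse pulmonary veins, varied in the same libraries. All 26 of its tested markers had a lower mean in Model, with a median fold change of 0.436, none separated the groups, and all but 1 were detected in each of the 8 libraries. Their summed level was 1122 to 7354 CPM in Control and 450 to 4204 in Model. In score, Control 1, at -0.83, lay among Model libraries, and Model 4, at 1.13, among Control libraries. The cardiac scores were -0.83, 1.99, 1.11 and 0.69 in Control 1 to Control 4, -1.58, -0.10, -2.33 and 1.13 in Model 1 to Model 4, and 1.15, -0.27, -2.20 and 1.24 in HBG 1 to HBG 4. In the same order, the oxidative phosphorylation scores were 0.07, 0.44, 0.34 and 0.004 in Control, 0.07, -0.42, -0.05 and -0.17 in Model, and 0.15, -0.13, -0.48 and 0.17 in HBG. Control 2 was highest in both, and HBG 3 was lowest in oxidative phosphorylation and next to lowest in cardiac score, while Model 2 and Model 4 had low oxidative phosphorylation scores beside higher cardiac ones. The part of cardiac muscle in the mitochondrial genes was not tested, and neither was that of gene length alone.

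Among ligands, channels and signalling proteins, Ppp1r14a had the smallest adjusted p. Ppp1r14a (ENSMUSG00000037166) encodes CPI-17, a smooth muscle inhibitor of myosin phosphatase, and had 57.3, 52.9, 60.5 and 53.6 CPM in Control and 12.7, 15.8, 12.4 and 17.4 in Model. HBG had 12.6 to 16.9 CPM, and the log2 fold change was -1.95 ± 0.13 (SE, edgeR adjusted p = 2.57e-05), a call that held without any single library. The list of pericyte and smooth muscle genes as a whole had 10 members higher and 11 lower of 21, with a median fold change of 0.978. In bulk tissue, fewer cells of a type and less RNA per cell cannot be told apart.

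Neurturin (Nrtn, ENSMUSG00000039481), a ligand of the GDNF family, had 2.32, 3.85, 2.22 and 2.52 CPM in Control and 0.373, 0.101, 0.724 and 0.203 in Model. Nenf, the secreted neurotrophic protein neudesin, had 41 to 53.7 CPM in Control and 16.1 to 27.2 in Model. The calls of Nrtn and Nenf held only without Model 3 when a library was left out. Over 38 tested genes of neurotrophic and growth factor ligands, 24 had a higher mean, and Fgf18, Fgf2, Wnt11 and Nrtn separated the groups, the first pair upwards. Fgf18 had 3.40 to 4.20 CPM in Control and 5.39 to 5.96 in Model (edgeR adjusted p = 0.148).

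The two-pore potassium channel gene Kcnk12 had 5.17, 6.61, 4.90 and 5.08 CPM in Control and 0.747, 1.06, 0.588 and 1.67 in Model, called only without Model 4 when a library was left out. The tyrosine phosphatase gene Ptpn18 had 17.6 to 20.4 CPM in Control and 10.9 to 12.3 in Model, and the scaffold gene Tamalin 25.3 to 36.8 and 13.7 to 20.1 CPM. Both calls were lost without each of the 8 libraries, with Tamalin reaching the highest adjusted p of all 62 genes, 0.180. With the GC and length correction, only Ppp1r14a and Nenf of these 6 still passed.

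The 7 membrane and trafficking genes had log2 fold changes of -2.42 to -0.74. Tmem238 (ENSMUSG00000030431) had 13.4, 10.4, 11.3 and 11.1 CPM in Control and 2.67, 1.31, 2.08 and 2.54 in Model (edgeR adjusted p = 0.00103). Eva1b had 32.7 to 45.6 CPM in Control and 18.3 to 20 in Model, and Inafm1 14.5 to 19 and 6.56 to 9.14. These 3 calls held without any single library, but that of Eva1b was lost after the GC and length correction (edgeR adjusted p = 0.223). Ap4s1, of the AP-4 adaptor, had 17.8 to 20.2 and 9.64 to 13 CPM, and Bloc1s4, of the complex that builds lysosome-related organelles, 11.3 to 13.6 and 4.59 to 7.20 CPM. Bri3 had 65.9 to 80.1 and 36.1 to 49 CPM, and Fam174a 39.8 to 52.1 and 22.5 to 31.1 CPM. The calls of these 4 were lost in 6 to 8 of the fits that left out a library.

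Zbtb11os1, transcribed opposite Zbtb11, had 4.34 to 5.93 CPM in Control and 0.959 to 1.72 in Model (edgeR adjusted p = 0.00576). The kit keeps the strand, but the sources used here do not say whether counting used it, so its reads cannot be told from those of Zbtb11. Of the 8 predicted genes, Gm20458 fell furthest, with 5.91 to 7.95 CPM in Control and 0 to 0.254 in Model, and 96.6% of its 50-base stretches occur in other genes, mostly Dbndd2. It was the 1 predicted gene whose fall held without any single library. Over all 61 passing genes with a reference transcript, 12 shared more than 20% of their 50-base stretches and 38 shared none.

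Of the 62 calls, 23 held in all 8 fits that left out a library, 39 were lost in at least 1 fit and 13 in every fit. By group, 6 of 11 genes of transcription and chromatin held in all 8 fits, 5 of 9 of RNA and ribosomes, 3 of 7 of membranes and trafficking, 2 of 11 of mitochondria and 1 of 6 ligands, channels and signalling proteins. DESeq2 and limma-voom called all 62, but among 444 and 1079 genes in all. The fit of only Model and Control libraries kept 50 of the 62, the GC and length correction 45 and the replicate block 23.

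Length moved with direction, and base composition did so among genes that fell and those of highest GC content. Genes that separated the groups upwards and downwards had median lengths of 3528.5 and 1816 bases, but median GC contents of 50.6% and 51.0%. Of genes of 4000 to 8000 bases, 6.63% separated upwards and 2% downwards. The list values in this report are not corrected for length or GC content. The 52 fallen genes with a known GC content had a median of 57.0% GC, and fallen genes a median length of 1275 bases. All tested genes had medians of 49.3% GC and 2696 bases. In the 57 genes above 65% GC, 29 separated the groups downwards (50.9%), 0 upwards, and the median log2 fold change was -0.77. Every library took part: the median level of these genes, relative to each gene's mean over 12 libraries, was 0.43 to 0.70 for the Control libraries on the log2 scale, -0.53 to -0.13 for the Model libraries and -0.60 to -0.09 for HBG. Scand1, Zfp771, Jund, Cebpb, Nrtn and Kcnk12 were among them, with 68.4%, 68.7%, 67.1%, 67.2%, 72.8% and 69.4% GC. The 591 genes of 60 to 65% GC shifted less. Of these, 85 separated downwards (14.4%) and 20 upwards (3.38%), with a median log2 fold change of -0.10, and 12 fell. After a smooth correction for GC content and length within each library, the median became -0.02 above 65% GC and 0.10 at 60 to 65%. Of the 62 genes, 45 still passed, 7 higher and 38 lower. The log2 fold changes of Scand1, Zfp771, Jund and Cebpb were then -3.61, -1.78, -1.26 and -1.58, and all 4 still passed. The other 4 of the 8 fallen genes above 65% GC no longer did. These were Nrtn, Kcnk12, Nr2f6 and Sap30l (edgeR adjusted p = 0.2, 0.252, 0.282 and 0.918). The correction also removes any biological difference that follows GC content, and which of the 2 applies was not tested. The shift was shared by Model and HBG, so a difference in library preparation between Control and both other groups cannot be told apart from bleomycin.

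**Figure D3:**
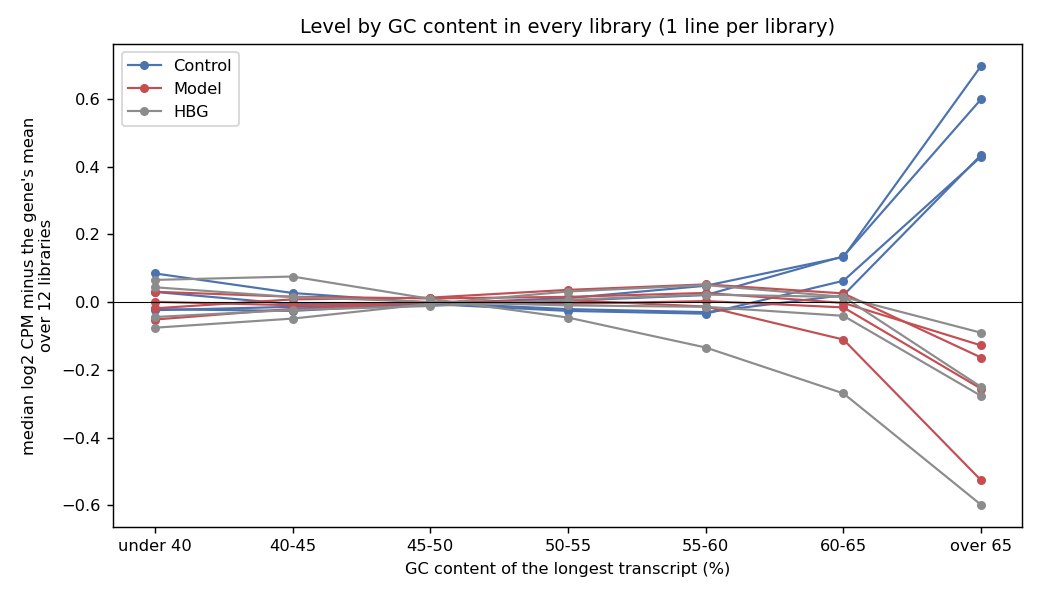
Median level of genes in 7 bands of GC content (horizontal axis, percent of the longest transcript), as log2 CPM relative to each gene's mean over the 12 libraries (vertical axis), 1 line per library. Most lines run together up to 60% GC, with HBG 3 lower, at -0.13, at 55 to 60%. At 60 to 65%, HBG 3 lies at -0.27 and Control 1 and Control 3 at 0.13 and 0.14. The groups part above 65%, where the 4 Control libraries lie at 0.43 to 0.70 and the Model and HBG libraries below 0.

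Among genes that separated the groups without passing the test, the 15 of widest gap in each direction were examined, predicted genes left out. Cxcl9, a chemokine induced by interferon-gamma that draws T cells, had 0.539, 0.450, 0.389 and 0.494 CPM in Control and 3.89, 2.73, 4.57 and 2.49 in Model, and its log2 fold change, 2.86 ± 0.58 (SE), did not pass (edgeR adjusted p = 0.077). Its HBG libraries had 1.11 to 8.72 CPM. Over the 35 tested genes of the interferon list, 20 had a higher mean, with a median fold change of 1.066. Only Cxcl9 and Ddx58 separated upwards, while Isg20 separated downwards, beside 4.2% and 4.51% of all genes tested.

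Ighg2c, a constant region of IgG, had 4.15, 3.65, 4.78 and 6.71 CPM in Control and 90.7, 20, 81.1 and 43.5 in Model, while HBG ran from 7.54 to 268 (edgeR adjusted p = 0.207). In the plasma cell list 13 of 16 genes had a higher mean and Ighg2b and Ighg2c separated the groups. Jchain, which joins IgA and IgM, had 21 to 32.7 CPM in Control and 200, 61.1, 76.6 and 21.5 in Model, so that Model 4 lay among the Control libraries.

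Secreted regulators of growth factors were among the genes of widest gap upwards. Pappa2, a protease that frees insulin-like growth factors from their binding proteins, had 2.05, 2.15, 2.06 and 1.83 CPM in Control and 7.95, 3.53, 6.29 and 3.45 in Model (edgeR adjusted p = 0.1). Fst, the activin antagonist follistatin, had 1.55 to 2.71 CPM in Control and 12.8, 3.69, 6.65 and 3.60 in Model (edgeR adjusted p = 0.126). In the opposite direction, Bambi, a pseudoreceptor that dampens TGF-beta signalling, had 33.8, 31.4, 31.2 and 28 CPM in Control and 16.9, 13.4, 17.7 and 19.3 in Model (log2 fold change -0.89 ± 0.17, SE, edgeR adjusted p = 0.054).

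Fkbp5, a co-chaperone of the glucocorticoid receptor and its target, had 24.8, 21.5, 23.6 and 22.5 CPM in Control and 37, 36.9, 43.8 and 60.4 in Model, highest in Model 4 (edgeR adjusted p = 0.116). The glucocorticoid list held no pattern beside it, with 10 members higher and 9 lower. Ankrd34b had 0.0494 to 0.0777 CPM in Control, under the floor of 3 counts, and 3.84, 0.707, 2.08 and 0.406 in Model (edgeR adjusted p = 0.0681, and 0.0443 without Model 4). Ppp1ccb had 4.90 to 14.5 CPM in Control and 22.8 to 36.7 in Model, Ifi207, an interferon-induced gene, 7.61 to 8.93 and 12.6 to 23.1, and the small GTPase effector gene Rin1 6.17 to 6.56 and 8.58 to 15.5 CPM.

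Downwards, Gp1bb, a chain of the platelet receptor for von Willebrand factor, had 2.48, 1.25, 1.36 and 1.43 CPM in Control and 0, 0, 0 and 0.355 in Model (edgeR adjusted p = 0.149). Chchd10, a mitochondrial protein, had 97.5, 127, 117 and 104 CPM in Control and 40.3, 28, 40.5 and 55 in Model (edgeR adjusted p = 0.0829). The linker histone gene H1f10 had 2.41 to 3.06 and 0.858 to 1.42 CPM, the Notch target family member Hes2 3.42 to 5.93 and 0.452 to 1.83, and the asialoglycoprotein receptor gene Asgr1 4.04 to 6.61 and 0.452 to 2.44 CPM. C2cd4b had 8.62, 40.8, 10.8 and 5.87 CPM in Control, where Control 2 stood alone, and 1.62 to 2.90 in Model. H1f10 and C2cd4b had 71.3% and 68.9% GC, in the band above 65% where 50.9% of genes separated downwards. Chchd10 had 58.2% GC. The part of GC content in these values was not tested.

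**Figure D4:**
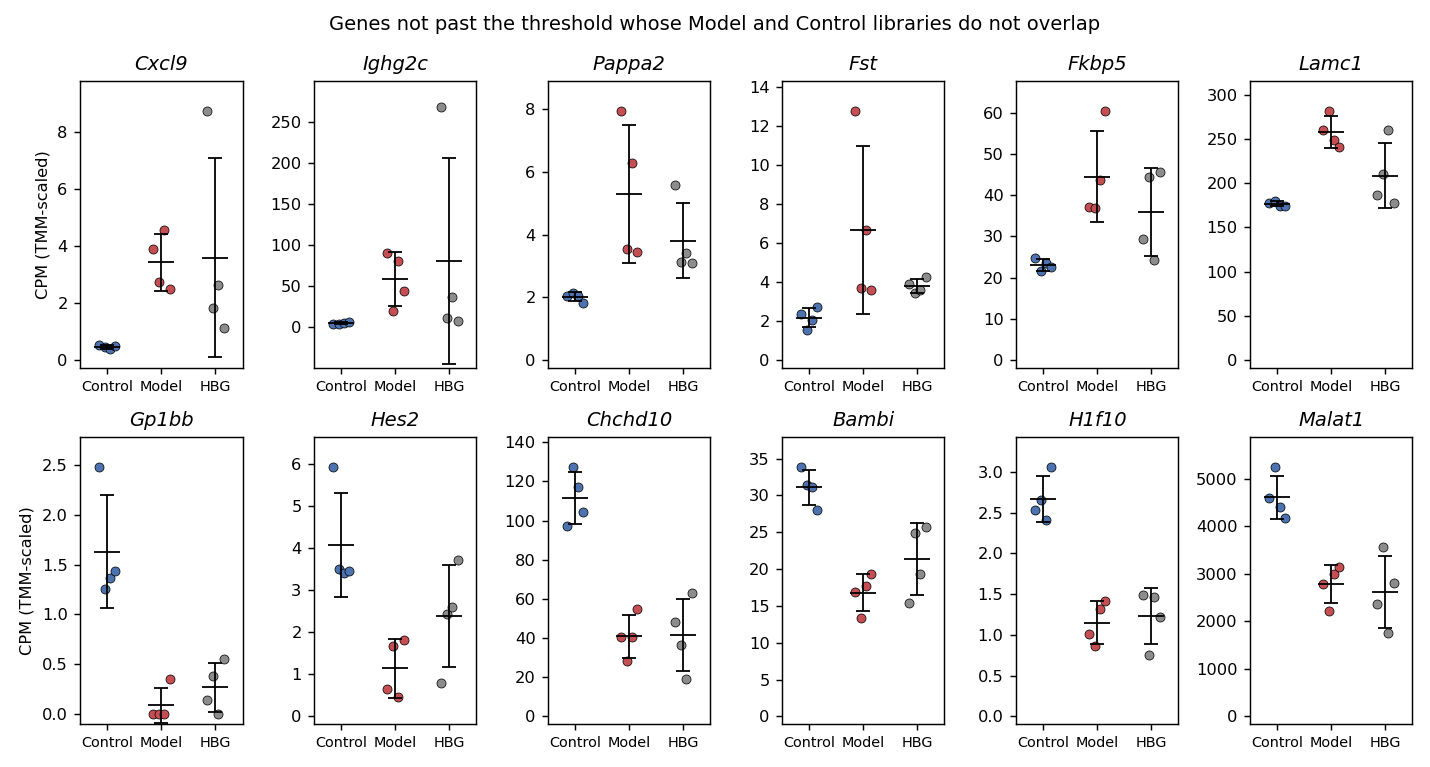
Level in CPM (vertical axes) of 12 genes that separated Model from Control without passing the test, 1 point per library, with the mean and SD of each group. The top row holds genes with higher and the bottom row genes with lower Model libraries, and in Cxcl9 and Ighg2c a single HBG library lies far above the rest.

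Some of the most abundant transcripts of the lung separated the groups too. Higher in all Model libraries were the actin gene Actb, with 2034 to 2244 CPM in Control and 2256 to 2719 in Model, and the saposin precursor Psap, with 866, 794, 912 and 884 CPM in Control and 2189, 1401, 1569 and 922 in Model. B2m, the light chain of MHC class I, had 670 to 978 and 1010 to 1625 CPM, and Msn, the membrane linker moesin, 773 to 966 and 1177 to 1293 CPM. Clic5, a chloride channel protein abundant in type I alveolar cells, had 589 to 836 and 842 to 1143 CPM. Itgb1, the beta-1 integrin, differed least, with 780 to 838 CPM in Control and 898 to 917 in Model.

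Lower in all Model libraries were Scgb1a1, with 45258, 43241, 61113 and 43254 CPM in Control and 30152, 16278, 31919 and 27562 in Model, and the nuclear RNA Malat1, with 4608, 5250, 4419 and 4172 CPM in Control and 2789, 2215, 2992 and 3149 in Model. Rn18s-rs5, a ribosomal RNA sequence that selection for polyadenylated RNA leaves in part, had 2049 to 2484 CPM in Control and 1143 to 1698 in Model. The aldehyde dehydrogenase gene Aldh2 had 737 to 863 and 541 to 702 CPM, and Sod1, the cytosolic superoxide dismutase, 353 to 465 and 264 to 328 CPM. None of the abundant genes named here passed, with edgeR adjusted p from 0.142 to 0.703.

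Gene lists for cell types and programmes were read by the number of members with a higher mean, the median fold change, and the members that separated the groups, which were in part named after their values were seen. Of all genes tested, 4.2% separated upwards and 4.51% downwards, which are the shares to set beside such counts here and above. Lists with few separating members may lie near these shares. In vessels the lists diverged. Of 19 genes of venous and adhesive endothelium 16 were higher in mean, the median was 1.234-fold, and Selp, Ackr1, Mmrn1 and Mcam separated upwards. Ackr1, the chemokine receptor of venules, had 0.108 to 0.550 CPM in Control and 3.36, 1.16, 1.54 and 0.711 in Model. The list's score was -0.33 to -0.15 in Control and 0.12 to 0.33 in Model, with no overlap and with Model 4 on the side of its group. Genes of lymphatic endothelium had a median of 1.403-fold, 10 of 11 higher. Capillary endothelium had 11 of 26 higher and a median of 0.954, and Tbx2 and Cldn5 separated downwards, the tight junction gene Cldn5 with 309 to 435 CPM in Control and 152 to 272 in Model. The arterial list had a median of 0.993.

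In the matrix, 20 of 21 basement membrane genes were higher in mean, with a median of 1.454-fold, and 8 separated upwards. Lamc1, the laminin gamma-1 chain, had 178, 180, 175 and 174 CPM in Control and 260, 282, 249 and 241 in Model, with Model 4 the lowest but above all Control libraries. Col4a1 had 546, 430, 508 and 506 CPM in Control and 1133, 995, 935 and 652 in Model. All 14 interstitial collagens were higher in mean, with a median of 1.509-fold, and Col1a1, Col5a3, Col6a1 and Col6a2 separated upwards. Col1a1 had 229, 273, 263 and 221 CPM in Control and 641, 350, 367 and 279 in Model, where Model 1 was highest. Of 26 metalloproteinase inhibitors and matrix proteases, 21 were higher, and Timp3 and Mmp12 separated upwards. Mmp15, a membrane-bound metalloproteinase, separated downwards, with 188 to 205 CPM in Control and 165 to 185 in Model. Mmp12, the macrophage elastase, had 2.40 to 5.50 CPM in Control and 84.3, 26.9, 63.3 and 6.39 in Model.

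Of 31 genes of TGF-beta and BMP signalling, 22 were higher, by a median of 1.096-fold, and 6 separated upwards: the ligands Tgfb2 and Tgfb3, the receptor Tgfbr2, the latency protein Ltbp2, and Smad2 and Smad3, which carry the signal to the nucleus. Tgfb2 had 37.2 to 46.6 CPM in Control and 75.8, 47.4, 73.3 and 46.7 in Model. Tgfbr2 had 260, 246, 248 and 257 CPM in Control and 426, 402, 372 and 299 in Model (edgeR adjusted p = 0.158). Ltbp2 had 94.2 to 124 CPM in Control and 312, 141, 209 and 124 in Model, a narrow separation in which Model 4 lay next to Control 3. Smad3 had 53.7 to 55.1 and 55.9 to 69.3 CPM. The list's scores overlapped between the groups.

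In the epithelium, 19 of 20 type II and 18 of 20 type I alveolar genes were higher in mean, with medians of 1.166-fold and 1.266-fold. Sftpc had 18928, 15060, 16461 and 13050 CPM in Control and 17549, 13833, 14116 and 13357 in Model, and Ager, of type I cells, 1514 to 2361 and 1543 to 2415, so neither separated the groups. Among type I genes, Clic5, Col4a3, Lmo7 and Timp3 separated upwards. Genes of the transitional state between type II and type I cells had a median of 1.334-fold, 18 of 19 higher, and none separated. Airway lists had the opposite direction: 17 of 20 club and secretory genes were lower, with a median of 0.722, and 20 of 21 ciliated genes, with a median of 0.882. Scgb1a1 and Gabrp separated downwards. Pigr, which carries IgA across epithelium, had 138 to 190 CPM in Control and 71.5, 112, 61.4 and 139 in Model. The scores of Model 4, at 0.51 and 0.37, were above those of 3 Control libraries in the club list and all 4 in the ciliated list. Without Model 4 the median of the club list was 0.616. The club scores moved with the cardiac scores given above: they were -0.42, 0.79, 0.48 and 0.34 in Control 1 to Control 4, -0.68, -0.11, -0.90 and 0.51 in Model 1 to Model 4, and 0.87, -0.13, -1.52 and 0.78 in HBG 1 to HBG 4. Control 1, Model 1, Model 3 and HBG 3 were the 4 lowest libraries in both. The part that the piece of tissue sampled had in the airway values was not tested.

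Among immune cells, all 34 genes of macrophages that derive from monocytes or gather at scars were higher in mean, with a median of 1.994-fold (2.34-fold without Model 4), and 6 separated upwards. Cd68, a lysosomal protein of macrophages, had 16.1, 14.6, 15 and 12.6 CPM in Control and 88.1, 45.5, 53.6 and 20.5 in Model. Fn1, fibronectin, had 194, 205, 189 and 155 CPM in Control and 938, 663, 477 and 263 in Model (edgeR adjusted p = 0.119, and 0.0457 without Model 4). Resident alveolar macrophage genes had a median of 1.271-fold, 14 of 20 higher. T cell, B cell and neutrophil genes had medians of 1.523-fold, 1.575-fold and 1.554-fold. None of their members separated the groups, and their scores ranged widely in both. Of the Model libraries, only Model 2 scored above every Control library in these lists. T cell scores were 1.57 in Model 2 and -0.78, -0.52 and -0.44 in Model 1, Model 3 and Model 4. In the same order, B cell scores were 1.84 against -0.83, -0.78 and -0.36, and neutrophil scores 2.20 against -0.68, 0.04 and -0.96. The highest Control scores were 0.27, 1.18 and 0.56. All 13 genes of MHC class II presentation were higher, and Lgmn alone separated. Complement had 23 of 25 members higher (median 1.307-fold), and C1qb, C1ra and Serping1 separated upwards.

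All 44 tested genes of the lysosomal list had a higher mean in Model, the median was 1.291-fold (1.38-fold without Model 4), and 13 separated upwards. The share of all genes tested that did so was 4.2%. Besides Man2b2 and Psap these included Npc1, the cholesterol exporter, with 86.8 to 91.8 and 97 to 113 CPM. Ctsd, the aspartic protease cathepsin D, had 430, 478, 479 and 328 CPM in Control and 1716, 818, 1148 and 485 in Model (edgeR adjusted p = 0.163, and 0.0494 without Model 4). Ctss, cathepsin S, had 110, 68, 99.6 and 103 CPM in Control and 615, 334, 399 and 91 in Model, so that Model 4 lay inside Control (edgeR adjusted p = 0.158, and 0.041 without Model 4). The list's score was -0.20 in Model 4, inside the Control range of -0.29 to -0.12. Macrophage markers had the same order of Model libraries, 1, 3, 2 and 4 from high to low, and their part in the lysosomal values was not tested. Their summed level was 3194 to 3556 CPM in Control and 3500 to 10481 in Model.

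Without Model 4, the 9 genes that rose still passed and 24 further genes passed as higher in Model. Model 4 had been singled out by its low macrophage score, so macrophage genes passing without it follow in part from that choice. Their adjusted p without Model 4 is therefore no independent evidence of a rise. The same limit holds for every other gene given with an adjusted p without Model 4. Model 4 also had the lowest Model score for interstitial collagens (-0.10), basement membrane (-0.10) and lysosomal genes (-0.20). Of the 34 lower genes, 30 had passed with all libraries and 4 had not. The higher genes are named after their values were seen. Markers and receptors of macrophages were Adgre1, with 8.63 to 11.8 CPM in Control and 36.8, 29, 25.1 and 8.83 in Model (edgeR adjusted p = 0.219, and 0.0479 without Model 4), the Fc receptor genes Fcgr3 and Fcgr2b, Lilrb4b, and Slc11a1, a metal transporter of the phagosome. Slc11a1 had 6.56 to 8.57 CPM in Control and 18.8, 22.5, 16.1 and 9.34 in Model (edgeR adjusted p = 0.077, and 0.0153 without Model 4). Fn1, Lamb3, Tgfbi, Sh3pxd2b and Adam9 encode matrix proteins or proteins of its turnover or adhesion. Adam9, a membrane protease, had 131, 135, 134 and 131 CPM in Control and 222, 183, 210 and 146 in Model (edgeR adjusted p = 0.158, and 0.0483 without Model 4). Il4ra, the receptor chain shared by interleukins 4 and 13, had 81.6 to 99.9 CPM in Control and 146, 160, 136 and 101 in Model (edgeR adjusted p = 0.152, and 0.0443 without Model 4). In 11 of the 33 genes Model 4 overlapped the Control libraries.

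Lists lower in Model outside the mitochondria held stress and early response genes. Immediate early and AP-1 genes had 28 of 33 members lower (median fold change 0.629), and Jund, Ier2 and Klf2 separated downwards. Jund and Klf2 had 67.1% and 61.6% GC, in bands where 50.9% and 14.4% of genes separated downwards. The part of GC content in this list was not tested. Klf2, an endothelial factor induced by flow, had 276, 301, 254 and 145 CPM in Control and 83.1, 102, 125 and 118 in Model (edgeR adjusted p = 0.0791). Ier2 had 70, 249, 77.3 and 61.8 CPM in Control and 36.5 to 59.5 in Model. The list's score was 1.59 in Control 2, and that of Control 4, -0.37, lay inside the Model range of -0.42 to -0.002. Of 23 heat shock and chaperone genes 22 were lower, with a median of 0.849, and none separated. Mitochondrially encoded genes had a median of 0.866, 14 of 15 lower.

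Several programmes had medians near that of all genes. Circadian genes had a median of 1.013-fold, p53 target genes 0.987, endoplasmic reticulum stress genes 1.034 and potassium channels 0.947. Cdkn1a, the p53 target p21, had 508, 579, 615 and 55.4 CPM in Control and 751, 174, 681 and 566 in Model, where a library of each group was far below the others. Cell cycle genes were higher in 36 of 42, by a median of 1.299-fold, and none separated. Genes of NRF2 and glutathione were lower in 22 of 32, with a median of 0.885, and Aox1, Aox3, Gstm5 and Sod1 separated downwards while Slc7a11 separated upwards. Aox3, an aldehyde oxidase, had 172 to 214 CPM in Control and 126 to 139 in Model. Of the 60 lists, 36 had a median above 0 on the log2 scale and 24 below it, and 14 held a gene that passed. Of all genes tested, 0.348% passed. The lists were written with earlier results of these data known, so the count of 14 is no evidence about the lists.

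Markers of other tissues and of blood overlapped between the groups. Erythroid genes summed to 1752 to 4617 CPM in Control and 422 to 5872 in Model, with Model 2 highest and Model 1 lowest in score. Adipocyte genes summed to 258 to 556 and 172 to 673 CPM, and skeletal muscle genes to 35.6 to 143 and 23.8 to 89.3 CPM.

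**Figure D5:**
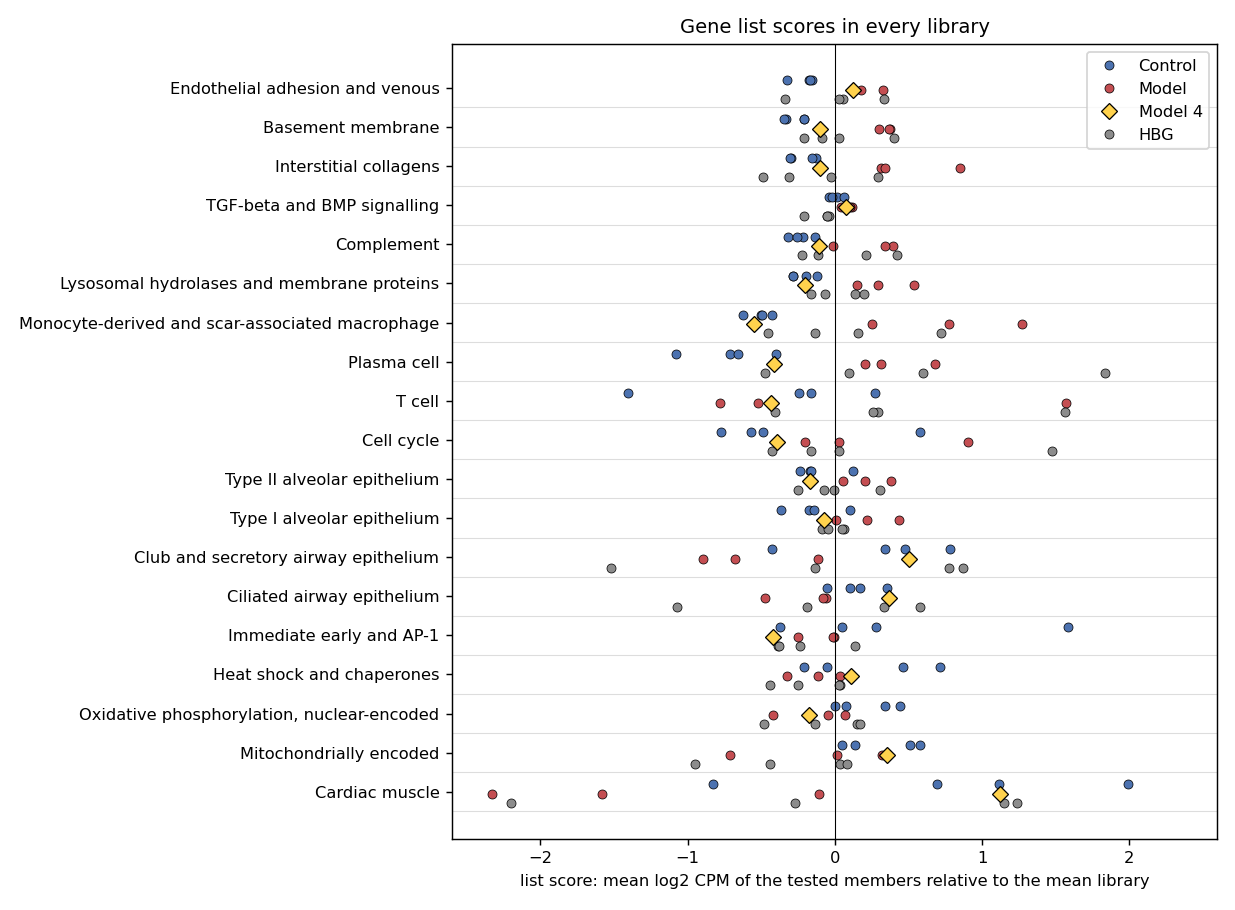
Scores of 19 gene lists (rows), the mean log2 CPM of the tested members relative to the mean library (horizontal axis), 1 point per library. Control points lie above, Model points on and HBG points below the line of each list, with Model 4 drawn as a diamond. Model 4 lies near Control for macrophage, lysosomal and plasma cell genes, and with the other Model libraries for venous endothelium.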

How the data were processed

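Estimated counts per gene of the 12 lung libraries were deposited in a single matrix. Its header names no unit; it was read from the values, of which 10.0% to 15.1% per library were not whole. Per the submitters' processing notes, the tools included the aligners HISAT2 and STAR 2.7.9a, the counters HTSeq and featureCounts 2.0.1, and the builds mm10 and GRCm39. The sources used here do not say which of them made the counts the authors deposited, so gene coordinates are not printed. The counts were rounded. Of 56980 genes, 22654 had 0 in every library, and filterByExpr kept 17827. edgeR 4.0.16 (R 4.3.3, limma 3.58.1) was fitted to all 12 libraries with TMM factors and group as the only term, two-sided, with Benjamini-Hochberg adjustment over the genes tested and a threshold of 0.05. The code was tested on simulated data.

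Groups and replicate numbers came from the titles. Libraries of a group correlated at 0.925 to 0.984 and differed by more than sampling noise. Deviations of same-numbered Control and Model libraries correlated at -0.197 to 0.158, so numbers do not pair them. The genes compared and the 60 lists were chosen with earlier results of these data known. Genes named were those past the threshold, the 15 of widest gap in each direction among the other separating genes of at least 1 CPM, 2 per list, the 8 most abundant separating genes in each direction and 10 key genes; others are said to be chosen after their values were seen. GC content and shared 50-base stretches came from GENCODE M21 transcripts (GC known for 98.1% of genes tested), and promoter windows from RefSeq. Alternatives were DESeq2 1.42.0, limma-voom, other scalings, filters, fits, a fold threshold, a replicate block, a GC and length correction, and each library left out. Intervals of depth cover counting error only, since reads carry no molecular identifiers.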

Additional observations from a re-analysis of the deposited data

Results flagged for a closer look

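In groups of 4 libraries, 215 groups of values were examined for a library whose gap to its nearest neighbour, as a share of the whole range, exceeded Dixon's critical value, and 15 did. Chance gives such a gap in about 1 in 20 groups.

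Model 2 stood apart 4 times. It was highest for Timp3 (1137 CPM, others 997 to 1021) and for Myh9, nonmuscle myosin (1017, others 596 to 650), and lowest for Endog (2.52, others 2.99 to 3.05) and Bloc1s4 (4.59, others 6.79 to 7.20). Model 3 was lowest for Ptpn18 (10.9 CPM, others 12.1 to 12.3), and Model 4 held the only counts of Gp1bb in its group (0.355 CPM, others 0).

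In Control, Control 1 was highest for Rnaset2a (81.4 CPM, others 65 to 66.4), Gp1bb (2.48, others 1.25 to 1.43) and Hes2 (5.93, others 3.42 to 3.50). Control 2 was highest for Kcnk12 (6.61 CPM, others 4.90 to 5.17) and C2cd4b (40.8, others 5.87 to 10.8). Control 3 was highest for Ap4s1 (20.2 CPM, others 17.8 to 18.1), Ankrd34b (0.0777, others 0.0494 to 0.0539, all under the floor of 3 counts) and Scgb1a1 (61113, others 43241 to 45258), and Control 4 for Ptpn18 (20.4, others 17.6 to 18). No cause of these gaps was tested.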

How the results depend on the processing

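The main counts were 62 genes passing, 9 higher and 53 lower, and 1552 separating the groups. With 1 library left out, 23 to 67 passed, 4 to 33 higher and 19 to 34 lower, and 1940 to 3253 separated. Most genes passed without Model 4 (67) and fewest without Control 3 (23). DESeq2 called 444 (198 higher, 246 lower) and limma-voom with sample quality weights 1079 (620 higher, 459 lower); voom gave Model 2 and Model 4 the lowest weights of their group, 0.330 and 0.533. The replicate block left 25 genes (5 higher, 20 lower), 23 of them among the 62, and with the GC and length correction 25 (19 lower). A threshold of 1 on the absolute log2 fold change left 40 (34 lower). Counts stayed within 1.5 times of the main ones with RLE or upper-quartile factors, without a filter on low counts, with a mean of at least 1 CPM, with only Model and Control libraries in the fit (70 passing, 50 of them among the 62) and with the GC and length correction alone (56 passing). Signs turned for Ager without Control 2, Model 1 or Model 3 (log2 fold changes -0.042 to 0.200 with 1 library left out), for Cdkn1a without Control 4 (-0.075 to 0.601) and for Pecam1 under voom (-0.11). For single named genes, 1553 values under alternatives kept their direction and their side of the threshold, 303 kept direction and were no longer past it, 96 became so and 5 reversed. The causes of these differences were not tested.

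Leaving out Model 4 raised the number of higher genes from 9 to 33. A gene at 0 may hold up to 3 counts. Uncertain counting of near-identical genes and an unknown annotation limit single genes, and GC content cannot be told apart from group in the genes above 65% GC. Genes of 60 to 65% GC share this limit in part.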
